A study of Mus musculus with 45 samples.

Results

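The step from 30 h to 40 h after partial hepatectomy in wild-type (WT) mouse liver was read from 5 of the 45 libraries of the series. They were chosen by their labels: all 3 labelled WT at 40 h (replicates 1, 2 and 3) and both labelled WT at 30 h (replicates 2 and 3). The mice were C57Bl/6, 8 to 12 weeks old, on a normal diet, and the operation, which removes most of the liver, was done in the morning. The series follows WT livers and Uhrf1hepKO livers (KO, by its name a knockout of Uhrf1 in hepatocytes) before and at several times after the same operation. 6 KO libraries, 3 at 30 h and 3 at 40 h, of the same strain, age and surgery, are used here for a parallel step that shares no library with the WT step. What drives the deletion in hepatocytes, and whether replicates are different mice, is not stated in the labels. The p-values therefore measure the spread between libraries within groups, estimated over all 45 libraries, and that spread may be technical.

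Hepatocytes of the adult liver are mostly quiescent, and after partial hepatectomy those that remain enter the cell cycle as a wave. D-type cyclins release E2F factors from the retinoblastoma family, E2F factors drive the genes of DNA synthesis, and later MuvB, B-Myb and FoxM1 drive the genes of chromosome condensation, spindle and cytokinesis. The regenerating liver also keeps its daily clock and secretes acute phase proteins.

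Libraries of the step held 12.85 and 16.42 M (mega) counts at 30 h and 15.53, 17.09 and 14.84 M at 40 h. Levels are given as counts per 1000000 counts with TMM scaling (CPM), in the order replicate 2, replicate 3 at 30 h and replicate 1, 2, 3 at 40 h, and only levels of 1 gene are compared with each other. Differences are log2, 40 h minus 30 h, ± SE, from edgeR's quasi-likelihood test over all genes, and a gene was called at a Benjamini-Hochberg adjusted p under 0.05. Uhrf1 (ENSMUSG00000001228, chr17:56303321-56323486, plus strand, GRCm38), which keeps DNA methylation through replication, stood at 36.5 and 28.04 CPM at 30 h and 64.9, 27.5 and 107 CPM at 40 h in WT libraries and at 8.87, 14.6 and 15.2 CPM at 30 h and 4.85, 8.95 and 3.59 CPM at 40 h in KO libraries. Each WT library lay above every KO library, and the counts cover the whole gene and all cell types of the liver. Within WT, Uhrf1 at 30 h and 40 h overlapped, and the difference was not called (1.04 ± 0.51, adjusted p = 0.200).

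The 6 hepatocyte markers, among them albumin and transthyretin, summed to 87776 and 67825 CPM at 30 h and 94254, 96609 and 100001 CPM at 40 h, with none of the 6 at 0 in any library of the step, and 1 of the 6, Cyp2e1, was called lower (−0.94). Kupffer cell markers, of the resident macrophages of the liver, summed to 92.9 and 366 CPM at 30 h and 141, 199 and 69.1 CPM at 40 h, with replicate 3 of 30 h highest. Neutrophil and monocyte markers summed to 14.97 and 39.5 CPM at 30 h and 18.5, 15.8 and 8.13 CPM at 40 h, again highest in replicate 3 of 30 h. None of the 10 Kupffer cell markers and none of the 7 neutrophil and monocyte markers tested was called. Endothelial markers (166 and 182 CPM at 30 h and 235, 274 and 191 CPM at 40 h) and stellate cell markers (256 and 316 CPM at 30 h and 419.8, 279.7 and 367 CPM at 40 h) gave no call in 10 and 10 genes. Lymphocyte markers (1.53 and 1.94 CPM at 30 h and 2.06, 1.65 and 1.64 CPM at 40 h) and cholangiocyte markers (37.8 and 32.5 CPM at 30 h and 47.4, 39.2 and 35.1 CPM at 40 h) gave none in 5 and 5 genes. In bulk tissue, fewer cells of a type and less RNA per cell cannot be told apart.

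Between 30 h and 40 h, 1137 of 14090 genes tested rose (8.07%) and 584 fell (4.14%), 1721 in all (12.2%). The median difference over all genes was 0.016. Among the called genes, 533 rose and 154 fell by at least 2-fold, and 112 rose and 7 fell by at least 8-fold. Rises had a median log2 difference of 0.94 and falls one of −0.68. Replicate 3 of 30 h bears on the count: without it, with replicate 2 alone standing for 30 h and assumed to vary like the other groups, 643 genes were called, 453 of them higher at 40 h, and 1719 of the 1721 differences kept their sign. Scaled by upper-quartile factors, the split was 854 higher and 1087 lower, since that scaling moved the median over all genes to −0.091.

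**Figure D1:**
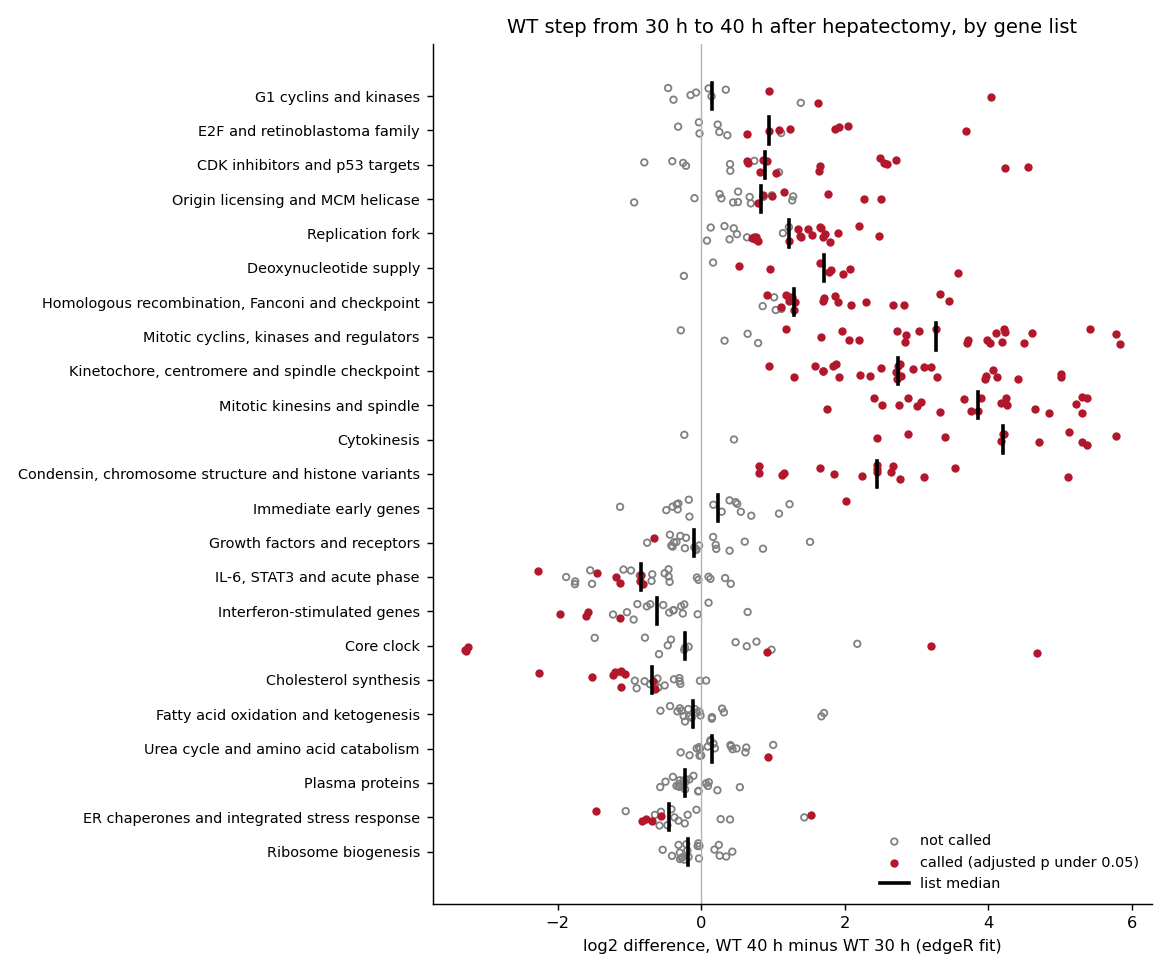
Log2 difference between 40 h and 30 h in WT liver (x axis) for each tested member of the gene lists named on the y axis, with called genes filled and list medians as bars. Lists of the cell cycle from DNA synthesis on lie to the right of 0, the 4 mitotic lists farthest, and the acute phase, interferon and cholesterol lists have medians below 0.

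Genes of mitosis made up the largest rises. Of 82 tested genes on the 4 lists for mitotic regulators, kinetochore, spindle and cytokinesis, 76 rose, none fell and 6 were not called, and the median log2 difference was 3.16 beside 0.016 over all genes. In 79 of the 82, every 40 h library stood above both 30 h libraries, beside 23.8% of all genes tested. Of the 12 genes that the naming rule picked as the largest rises (called, expressed above its minimum level and without overlap between the times), most have a known part in cell division: Depdc1a, Pif1, Ccnb2, Plk1, Iqgap3, Prr11, Ccnb1, Prc1, Hmmr, Kif20a, Nusap1 and Anln, with log2 differences from 5.12 to 6.35. Without replicate 3 of 30 h, 71 of the 82 were called higher.

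Among the mitotic regulators, 23 of 27 rose, with a list median of 3.28. Cyclin B2 (Ccnb2), a partner of the mitotic kinase Cdk1, stood at 0.483 and 0.666 CPM at 30 h and 38.3, 38.2 and 24.6 CPM at 40 h. It was near the limit of detection in both 30 h libraries and 56.99-fold higher at 40 h (5.83 ± 0.65, adjusted p = 8.62e-08). Ccnb1, its relative cyclin B1, stood at 0.966 and 1.33 CPM at 30 h and 54.1, 54.8 and 41.8 CPM at 40 h, a log2 difference of 5.42 ± 0.68, adjusted p = 8.43e-07. Plk1, the polo kinase that drives entry into mitosis and the spindle, stood at 1.05 and 0.606 CPM at 30 h and 56.5, 42.4 and 35.01 CPM at 40 h. Its 40 h libraries lay far above either 30 h library, and the fitted log2 difference was 5.79 ± 0.60, adjusted p = 2.26e-08. Cdk1 stood at 8.21 and 6.42 CPM at 30 h and 125, 113 and 107 CPM at 40 h and rose by a log2 difference of 3.98 ± 0.45, adjusted p = 8.33e-08. Foxm1, the transcription factor of late cell cycle genes, stood at 2.41 and 1.76 CPM at 30 h and 59.2, 41.8 and 49.8 CPM at 40 h. Both 30 h libraries were low and the 40 h libraries lay close together (4.60 ± 0.45, adjusted p = 6.43e-09). The Aurora kinases Aurka, of the centrosome, and Aurkb, of the chromosomal passenger complex, had log2 differences of 3.28 ± 0.28, adjusted p = 2.86e-10, and 4.21 ± 0.38, adjusted p = 8.77e-10. Not called were Wee1, which restrains Cdk1 (0.79), Cks1b (0.65), the anaphase-promoting complex activator Fzr1 (0.33) and securin, Pttg1 (−0.28).

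Every tested gene of the kinetochore and spindle checkpoint (27 of 27, median 2.75) and of the kinesin and spindle list (21 of 21, median 3.86) rose. Bub1, a checkpoint kinase at the kinetochore, stood at 1.29 and 0.848 CPM at 30 h and 22.1, 13.5 and 13.5 CPM at 40 h, a log2 difference of 3.95 ± 0.41, adjusted p = 8.29e-09. Knl1, the scaffold that binds it, stood at 1.37 and 0.787 CPM at 30 h and 21.97, 17.2 and 16.3 CPM at 40 h (4.12 ± 0.42, adjusted p = 8.12e-09). For both genes the 2 times were far apart, and replicate 1 was the highest at 40 h. Mad2l1, the checkpoint protein Mad2, stood at 11.02 and 8.30 CPM at 30 h and 55.3, 51.2 and 58.2 CPM at 40 h, a smaller log2 difference of 2.51 ± 0.26, adjusted p = 8.12e-09. The spindle motor Kif11 stood at 3.62 and 2.30 CPM at 30 h and 66.7, 47.001 and 52.8 CPM at 40 h, a log2 difference of 4.25 ± 0.40, adjusted p = 3.67e-09. Nusap1, which bundles spindle microtubules, had a log2 difference of 5.22 ± 0.44, adjusted p = 2.86e-10, and Hmmr, a spindle assembly factor, one of 5.31 ± 0.58, adjusted p = 6.99e-08.

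On the cytokinesis list, 11 of 13 genes rose, with the largest median of any list (4.20), and Cit (0.46) and Sept9 (−0.23) were not called. Prc1, which crosslinks the microtubules of the central spindle, stood at 2.09 and 1.64 CPM at 30 h and 95.2, 73.2 and 62.5 CPM at 40 h. Replicate 1 was the highest at 40 h, and all 3 libraries lay far above 30 h (5.38 ± 0.43, adjusted p = 1.52e-10). Anln, anillin of the contractile ring, stood at 1.21 and 1.21 CPM at 30 h and 54.1, 35.8 and 37.5 CPM at 40 h (5.12 ± 0.41, adjusted p = 1.27e-10). Racgap1, of the centralspindlin complex, had a log2 difference of 4.20 ± 0.40, adjusted p = 4.80e-09, and Kif20a, a kinesin of the midzone, one of 5.30 ± 0.56, adjusted p = 2.39e-08.

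Outside these lists, Depdc1a had the largest difference of all genes named, at 0.241 and 0.121 CPM at 30 h and 15.96, 14.5 and 13.9 CPM at 40 h, a log2 difference of 6.35 ± 0.63, adjusted p = 6.95e-09. Iqgap3, a scaffold of the cytoskeleton, stood at 1.29 and 0.969 CPM at 30 h and 62.9, 47.9 and 49.4 CPM at 40 h (5.58 ± 0.44, adjusted p = 1.27e-10). The helicase Pif1 had 3 counts in all at 30 h and 365 at 40 h, a ratio of summed counts per library size of 69.8 with an exact 95% interval of 23.7 to 340 for counting error alone. Chromosome structure moved as a whole list: all 16 tested genes of condensins, histone variants and chromatin proteins of dividing cells rose (median 2.45). The condensin core subunit Smc4 stood at 23.7 and 18.96 CPM at 30 h and 113, 88.3 and 102 CPM at 40 h (2.25 ± 0.23, adjusted p = 9.92e-09), and the condensin subunit Ncapd2 had a log2 difference of 2.78 ± 0.30, adjusted p = 2.24e-08. H2afz, the histone variant H2A.Z, stood at 61.7 and 48.9 CPM at 30 h and 217, 189 and 192 CPM at 40 h (1.85 ± 0.19, adjusted p = 9.42e-09).

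**Figure D2:**
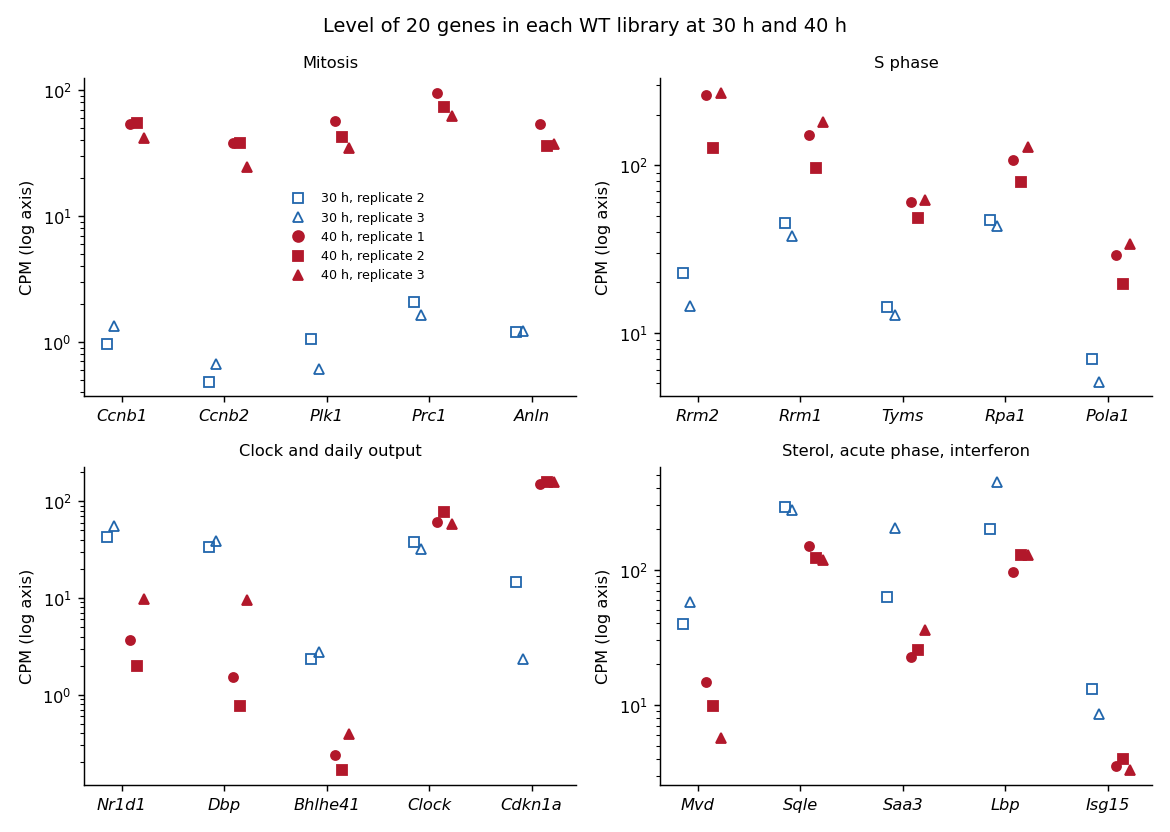
CPM (y axis, log scale) of 20 genes (x axis) in each WT library, open symbols for 30 h and filled symbols for 40 h, with squares for replicate 2, triangles for replicate 3 and circles for replicate 1. No mitotic gene shown overlaps between the times, replicate 2 is lowest at 40 h for every S-phase gene shown, and replicate 3 lies nearest to 30 h at 40 h for Nr1d1 and Dbp.

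The promoters of Ccnb2 and Plk1, from the mitotic lists, of Depdc1a, which is on none of the lists, of the E2F family repressor E2f7 and of the clock gene Bhlhe41 are shown because these genes changed and their windows carry letters that were searched for. The windows are from RefSeq on GRCm38.p6, 250 bases before to 50 after the start, 5′ to 3′ on the gene's strand: Ccnb2 at chr9:70421505-70421804 (minus strand), Plk1 at chr7:122159185-122159484 (plus), Depdc1a at chr3:159495183-159495482 (plus), E2f7 at chr10:110745189-110745488 (plus) and Bhlhe41 at chr6:145865371-145865670 (minus). Capitals mark matches on either strand to the CCAAT box, to TTTGAA (the letters of the cell cycle homology region of late cell cycle genes), to the E2F-type site GCGGGAAA and to the E-box CACGTG. TTATGTAA, of the D-box type, and the C/EBP-type site TTATGCAA were also searched and are in none of the 5 windows.
Ccnb2: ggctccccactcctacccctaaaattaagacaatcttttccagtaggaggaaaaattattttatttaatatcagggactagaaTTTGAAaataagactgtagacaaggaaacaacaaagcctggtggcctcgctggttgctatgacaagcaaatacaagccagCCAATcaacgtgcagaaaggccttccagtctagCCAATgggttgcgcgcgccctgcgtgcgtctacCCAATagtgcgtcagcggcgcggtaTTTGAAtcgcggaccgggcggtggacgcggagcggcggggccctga
Plk1: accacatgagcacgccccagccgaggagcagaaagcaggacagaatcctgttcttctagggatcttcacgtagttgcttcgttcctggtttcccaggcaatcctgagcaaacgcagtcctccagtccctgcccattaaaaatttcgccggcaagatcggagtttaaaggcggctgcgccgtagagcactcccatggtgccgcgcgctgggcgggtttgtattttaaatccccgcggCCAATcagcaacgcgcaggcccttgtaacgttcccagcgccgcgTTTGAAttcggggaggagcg
Depdc1a: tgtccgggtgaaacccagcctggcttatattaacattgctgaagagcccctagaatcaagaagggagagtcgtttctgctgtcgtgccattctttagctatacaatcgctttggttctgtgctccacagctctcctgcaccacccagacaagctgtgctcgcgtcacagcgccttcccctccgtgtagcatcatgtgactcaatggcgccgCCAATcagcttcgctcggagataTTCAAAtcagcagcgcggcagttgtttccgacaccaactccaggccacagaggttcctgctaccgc
E2f7: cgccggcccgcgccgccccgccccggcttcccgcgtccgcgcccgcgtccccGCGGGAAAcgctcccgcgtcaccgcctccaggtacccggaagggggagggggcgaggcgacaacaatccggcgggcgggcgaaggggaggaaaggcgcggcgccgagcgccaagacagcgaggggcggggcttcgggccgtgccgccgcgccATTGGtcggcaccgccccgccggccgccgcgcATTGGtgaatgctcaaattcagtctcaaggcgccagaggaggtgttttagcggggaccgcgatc
Bhlhe41: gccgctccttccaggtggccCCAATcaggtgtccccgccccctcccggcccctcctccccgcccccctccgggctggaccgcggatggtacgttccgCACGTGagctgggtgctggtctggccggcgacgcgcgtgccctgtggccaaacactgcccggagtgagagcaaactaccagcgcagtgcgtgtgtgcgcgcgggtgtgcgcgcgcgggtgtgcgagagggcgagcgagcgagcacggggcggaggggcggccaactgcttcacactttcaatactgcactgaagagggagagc

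Ccnb2 held 3 CCAAT matches, starting 87, 54 and 21 bases before the start, and TTTGAA matches at −167 and 5. Plk1 and Depdc1a each held 1 CCAAT and 1 TTTGAA match near the start. E2f7 held GCGGGAAA, the letters of a typical E2F site, at −198, and Bhlhe41 held CACGTG, the E-box bound by Clock and Arntl, at −153. Windows were matched for 70 of the 82 mitotic genes (77 windows), and 72.7% of them held CCAAT, 59.7% TTTGAA and 48.1% both, beside 37.4%, 17.9% and 6.95% of all 32851 windows of that length. The S-phase windows (54 windows of 47 genes) held CCAAT in 55.6%, TTTGAA in 16.7% and GCGGGAAA in 11.1%, the last beside 1.07% of all windows. Of 21 windows of 16 core clock genes, 28.6% held CACGTG, beside 7.15% of all, and of 19 windows of 16 cholesterol genes 84.2% held CCAAT. A match describes the letters in the window and is not a measured site.

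DNA synthesis genes also rose, by less. On the 3 S-phase lists together, 34 of 58 tested genes rose, none fell and 24 were not called, with a median of 0.99. Upper-quartile scaling, DESeq2 and limma on log2(FPKM + 0.1) and on log2(FPKM + 1) each called 1 of the 58 lower. A fit of only the 5 WT libraries of 30 h and 40 h called 21 higher and 1 lower. All 40 h libraries lay above both 30 h libraries for 39 genes and below for 2, beside 23.8% and 19.8% of all genes tested. Within 40 h, replicate 3 was highest in 55 of the 58 genes and replicate 2 lowest in 54, so that the 3 libraries were in nearly the same order gene after gene. At 30 h, replicate 2 was the higher in 51. Without replicate 3 of 30 h, 22 genes were called higher.

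Genes of replication origins had the fewest calls of the 3 lists. Of 20 genes for licensing and firing, 7 rose (median 0.83), and without replicate 3 of 30 h 3 were called. Dbf4 and Cdc7, the kinase that fires origins, had log2 differences of 2.51 ± 0.32, adjusted p = 4.76e-07, and 1.77 ± 0.41, adjusted p = 0.00308. Gins2, of the active helicase, stood at 5.07 and 3.45 CPM at 30 h and 21.2, 15.9 and 24.2 CPM at 40 h (2.27 ± 0.34, adjusted p = 1.03e-05). The licensing factors Cdc6 and Cdt1 were not called, with log2 differences of 0.28 and 0.26. Of the 6 subunits of the MCM helicase only Mcm7 was called (0.99 ± 0.22, adjusted p = 0.00233), and the others ran from 0.45 for Mcm2 to 1.28 for Mcm5. Mcm5 stood at 75.3 and 54.9 CPM at 30 h and 154, 105 and 215 CPM at 40 h, without overlap but with a wide spread at 40 h (1.28 ± 0.46, adjusted p = 0.0682). Gins1 and Gins4 rose by log2 differences of 1.15 and 0.80, with adjusted p of 0.0908 and 0.0879 without replicate 3 of 30 h.

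At the fork, 19 of 28 genes rose (median 1.22). Pcna, the sliding clamp, stood at 67.7 and 45.9 CPM at 30 h and 166, 109 and 224 CPM at 40 h. All 40 h libraries were above 30 h, with replicate 3 highest and replicate 2 lowest (1.55 ± 0.25, adjusted p = 2.34e-05). Rpa1, which coats single-stranded DNA, stood at 47.1 and 43.1 CPM at 30 h and 108, 79.8 and 128 CPM at 40 h (1.22 ± 0.15, adjusted p = 2.27e-07). Pola1, the catalytic subunit of the polymerase that starts each strand, had a log2 difference of 2.204 ± 0.30, adjusted p = 1.44e-06, and Lig1, the ligase that joins Okazaki fragments, one of 1.91 ± 0.36, adjusted p = 2.90e-04.

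Supply of deoxynucleotides showed the largest median of the 3 lists (1.72), with 8 of 10 genes called higher. Rrm2, the regulated subunit of ribonucleotide reductase, stood at 22.6 and 14.4 CPM at 30 h and 262, 126 and 270.5 CPM at 40 h. Replicates 1 and 3 of 40 h were alike and replicate 2 was lower, still far above 30 h (3.57 ± 0.35, adjusted p = 6.95e-09). Its partner Rrm1 stood at 44.98 and 38.04 CPM at 30 h and 152, 96.5 and 180.02 CPM at 40 h (1.78 ± 0.23, adjusted p = 9.25e-07). Tyms, thymidylate synthase, stood at 14.2 and 12.8 CPM at 30 h and 60.7, 48.4 and 62.3 CPM at 40 h, with little spread within either time (2.08 ± 0.15, adjusted p = 2.76e-11). The folate enzymes Shmt1 (−0.24) and Mthfd1 (0.17), which serve more than DNA synthesis, were not called.

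Genes of recombination, the Fanconi pathway and the replication checkpoint rose in 18 of 22 cases (median 1.30), and in 10 without replicate 3 of 30 h. Fancd2, at the centre of crosslink repair, stood at 2.49 and 1.03 CPM at 30 h and 22.4, 12.1 and 22.2 CPM at 40 h (3.45 ± 0.44, adjusted p = 5.08e-07). Rad54l, a motor of recombination, had a log2 difference of 2.82 ± 0.36, adjusted p = 3.85e-07. Dnmt1, the maintenance DNA methyltransferase that Uhrf1 recruits, stood at 25.9 and 26.6 CPM at 30 h and 62.7, 42.9 and 72.6 CPM at 40 h (1.18 ± 0.27, adjusted p = 0.00333). Chek1 (1.02), Palb2 (0.86), Exo1 (1.12) and Uhrf1 were the 4 not called.

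Among the listed cyclins and E2F genes, cyclin A2, cyclin E2 and several E2F genes rose, and cyclin D1 was not called. Ccnd1, which starts the cycle, stood at 152 and 119.5 CPM at 30 h and 109, 68.7 and 134 CPM at 40 h. The times overlapped and the difference was not called (−0.38 ± 0.53, adjusted p = 0.699). Ccna2, cyclin A2 of S phase and early mitosis, stood at 3.94 and 2.91 CPM at 30 h and 65.2, 51.5 and 50.3 CPM at 40 h and had the largest rise of that list (4.03 ± 0.43, adjusted p = 2.59e-08). Ccne2, a cyclin of the G1 to S transition, stood at 7.48 and 5.57 CPM at 30 h and 20.4, 11.02 and 28.98 CPM at 40 h (1.63 ± 0.39, adjusted p = 0.00464), with an adjusted p of 0.128 without replicate 3 of 30 h. Cdk2, its kinase, had a log2 difference of 0.95 ± 0.25, adjusted p = 0.00833, with adjusted p of 0.0681, 0.0990 and 0.0614 without replicate 2 of 30 h, replicate 3 of 30 h and replicate 3 of 40 h. These 3 were the ones called among 11 G1 cyclins and kinases (median 0.15), and without replicate 3 of 30 h 1 was called.

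Of 15 genes of the E2F and retinoblastoma family, 8 rose (median 0.95), and 4 and 5 were called without replicate 3 of 30 h and without replicate 3 of 40 h. E2f7, a repressor of E2F targets, stood at 0.885 and 0.182 CPM at 30 h and 7.89, 4.44 and 7.41 CPM at 40 h. Both 30 h libraries were below 1 CPM (3.70 ± 0.58, adjusted p = 1.61e-05). Its relative E2f8 had a log2 difference of 2.05 ± 0.44, adjusted p = 0.00157, the activator E2f1 one of 1.08 ± 0.30, adjusted p = 0.0122, and the pocket protein Rbl1 one of 1.86 ± 0.28, adjusted p = 1.02e-05. Mybl2, B-Myb, rose by 1.92 ± 0.54, adjusted p = 0.0156. Lin54, the subunit of MuvB that binds DNA, and Tfdp1, the partner of E2F factors, rose by 1.24 and 0.95, while E2f4 (−0.022) and Rbl2 (0.23), a pair found in quiescent cells, were not called.

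Inhibitors of the cycle and targets of p53 also rose, 14 of 22 with none lower (median 0.88), and 7 without replicate 3 of 30 h. Cdkn1a, the inhibitor p21, stood at 14.7 and 2.36 CPM at 30 h and 153, 160.3 and 157 CPM at 40 h. The 3 libraries of 40 h were almost equal while those of 30 h differed several-fold (4.24 ± 0.99, adjusted p = 0.00406), and the adjusted p was 0.129 without replicate 3 of 30 h. Cdkn2c, the inhibitor p18, stood at 8.45 and 7.03 CPM at 30 h and 54.5, 36.4 and 44.97 CPM at 40 h (2.55 ± 0.23, adjusted p = 8.77e-10). Of p53 targets, the death receptor Eda2r had a log2 difference of 4.55 ± 0.63, adjusted p = 2.12e-06, Phlda3 one of 2.60 ± 0.48, adjusted p = 2.27e-04, Ccng1 one of 1.05 ± 0.19, adjusted p = 1.56e-04 and Mdm2, which destabilises p53, one of 0.66 ± 0.14, adjusted p = 0.00129. Gadd45a (−0.79), Sesn1 (−0.40), Bbc3 (−0.25) and Fas (−0.21), also p53 targets, had values below 0 and were not called.

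Set in the series of WT times, the S-phase genes had their highest mean level at 40 h and the mitotic genes were near their 48 h level. The mean log2 CPM over the 58 S-phase genes was 2.01, 2.07 and 1.90 in the 3 WT libraries before surgery, 2.74, 2.43 and 2.36 at 24 h, 4.02 and 3.76 at 30 h, 5.02, 4.45 and 5.31 at 40 h and 4.18 and 4.03 at 48 h. No 40 h library overlapped with those of 30 h or 48 h. Over the 82 mitotic genes it was −0.21, −0.16 and −0.32 before surgery, 0.23, −0.13 and −0.28 at 24 h, 1.70 and 1.46 at 30 h, 4.83, 4.52 and 4.55 at 40 h and 5.21 and 4.48 at 48 h. Here 40 h lay far above 30 h and overlapped with 48 h. The steps on both sides share libraries with this one, so their medians are given side by side only: for S phase 1.43 from 24 h to 30 h, 0.99 from 30 h to 40 h and −0.87 from 40 h to 48 h, and for mitosis 2.02, 3.16 and 0.31.

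**Figure D3:**
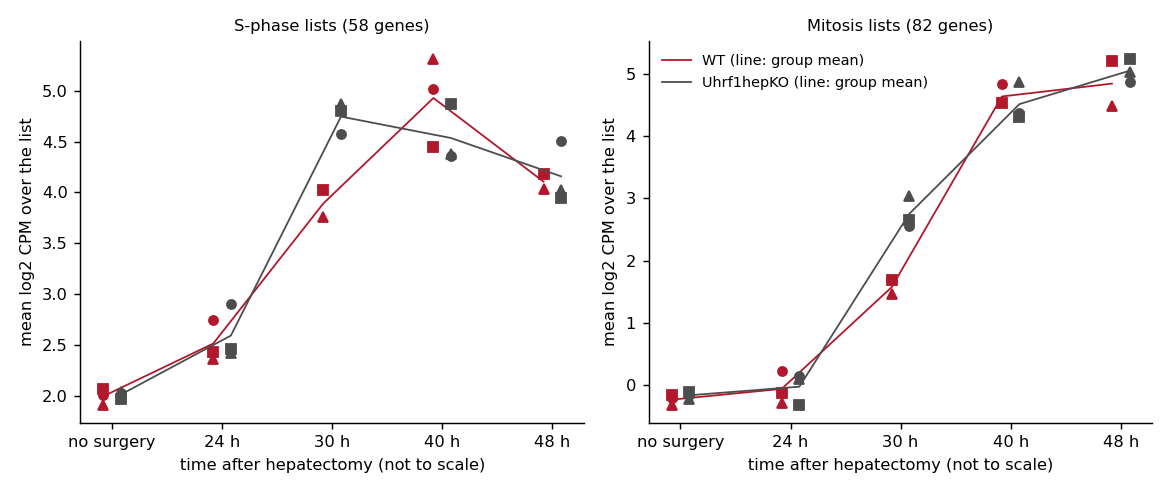
Mean log2 CPM (y axis) over the 58 S-phase genes and the 82 mitotic genes in each library by time (x axis, not to scale), WT in red and Uhrf1hepKO in grey, with circles, squares and triangles for replicates 1, 2 and 3 and lines through group means. In WT the S-phase mean is highest at 40 h and the mitotic mean climbs from 30 h to 40 h and levels off. In KO the S-phase group mean is highest at 30 h, where the libraries overlap with those of 40 h.

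In KO liver the step from 30 h to 40 h gave 1215 genes higher (8.62%) and 1051 lower (7.46%), 16.1% of genes in all. Of the WT rises, 544 were also called higher in KO, which is 47.8% of the WT rises and 44.8% of the KO ones. Of the falls, 278 were shared, 47.6% of the WT falls and 26.5% of the KO falls. Opposite calls were rare: 1 gene rose in WT and fell in KO, and 2 fell in WT and rose in KO. The mitotic lists rose in both genotypes, with 70 of 82 genes called higher in KO and a median of 1.79 beside 3.16 in WT. Of the 58 S-phase genes, 4 were called higher and 11 lower in KO (median −0.12), beside 34 and 0 in WT.

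A test of the difference between the steps called 82 genes (0.582% of those tested), 78 with the WT step more positive (0.554%) and 4 with it more negative (0.0284%). Of the 78, 72 were called higher in WT, 30 were called higher and 7 lower in KO, and 24 had a KO difference below 0. They included 17 of the 58 S-phase and 10 of the 82 mitotic genes. These calls rest on few libraries: without replicate 3 of WT at 30 h edgeR called 0, while 1011 genes had an unadjusted p under 0.05, against 1494 with all libraries. With all libraries, DESeq2 called 217 genes. The count also fell to 13, 16, 35, 11 and 15 without replicate 1 or replicate 3 of WT at 40 h, replicate 2 or replicate 3 of KO at 30 h, and replicate 1 of KO at 40 h, and was 208 without replicate 2 of WT at 40 h.

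Rrm2 had the smallest p of this test. In KO it stood at 91.2, 82.1 and 129 CPM at 30 h and 129, 269.9 and 205 CPM at 40 h, against 22.6 and 14.4 CPM at 30 h and 262, 126 and 270.5 CPM at 40 h in WT. All KO libraries lay above WT at 30 h and overlapped with WT at 40 h, and the WT step exceeded the KO step by 2.58 ± 0.41, adjusted p = 0.00429. Tyms stood at 24.6, 26.8 and 29.7 CPM at 30 h and 46.6, 52.5 and 52.8 CPM at 40 h in KO, and the difference between the steps was 1.18 ± 0.19, adjusted p = 0.00429. For Dut, which clears dUTP, the difference was 1.31 ± 0.23, adjusted p = 0.00673, and for Rpa1 1.06 ± 0.195, adjusted p = 0.00756. Pcna, at 111, 119 and 141 CPM at 30 h and 104, 161 and 87.1 CPM at 40 h in KO, had a log2 difference of −0.082 there and a difference between the steps of 1.63 ± 0.32, adjusted p = 0.0133. Without replicate 3 of WT at 30 h, the adjusted p of Rrm2, Tyms, Dut and Rpa1 were 0.214, 0.214, 0.226 and 0.226. With only the 11 libraries of 30 h and 40 h fitted, they were 0.111 for Rrm2, 0.103 for Dut and 0.0898 for Rpa1, and limma on log2(FPKM + 0.1) gave 0.0572 for Rpa1.

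Of other genes with the smallest p for the difference, Ska1, of the kinetochore, stood at 0.161 and 0.242 CPM at 30 h and 6.18, 7.18 and 7.34 CPM at 40 h in WT and 1.46, 2.04 and 2.94 CPM at 30 h and 5.06, 3.98 and 6.71 CPM at 40 h in KO, a difference between the steps of 3.71 ± 0.66, adjusted p = 0.00673. Psmc3ip, a recombination factor, and Eri1, a nuclease that trims histone mRNA ends, differed by 2.21 ± 0.39, adjusted p = 0.00673, and 1.07 ± 0.19, adjusted p = 0.00673. Naip2, an inflammasome sensor whose family members share sequence so that its reads are uncertain, moved the other way, at 1.37 and 3.94 CPM at 30 h and 0.884, 0.548 and 0.262 CPM at 40 h in WT and 0.469, 0.922 and 0.235 CPM at 30 h and 1.80, 2.34 and 2.29 CPM at 40 h in KO (−4.23 ± 0.75, adjusted p = 0.00673). Without replicate 3 of WT at 30 h, the adjusted p of Ska1, Psmc3ip, Eri1 and Naip2 were 0.226, 0.214, 0.309 and 0.311. The fit of the 11 libraries gave 0.0855 for Eri1 and 0.0554 for Naip2, and limma on log2(FPKM + 0.1) gave 0.0923 for Psmc3ip. In the KO step alone, the licensing factors Cdc6 (−2.14 ± 0.57, adjusted p = 0.0100) and Cdt1 (−1.53 ± 0.40, adjusted p = 0.00897) fell. Cyclin D1 fell there too (−1.60 ± 0.49, adjusted p = 0.0245). These are calls within KO and not of the difference between the steps. For Uhrf1 itself the difference between the steps was 2.19 ± 0.71, adjusted p = 0.161.

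**Figure D4:**
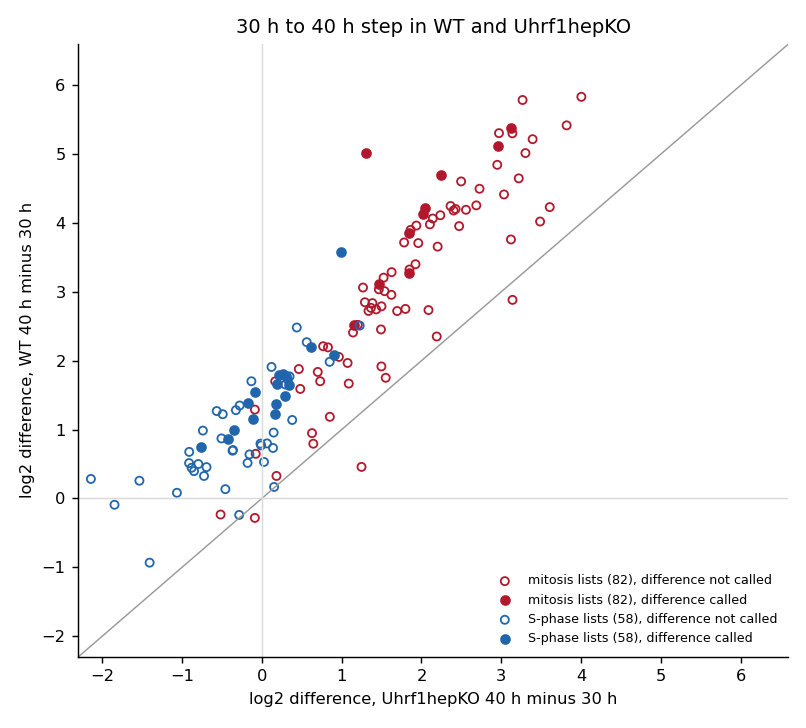
Log2 difference between 40 h and 30 h in WT (y axis) against that in Uhrf1hepKO (x axis) for each of the 58 S-phase genes (blue) and 82 mitotic genes (red), filled where the test of the difference called the gene, with the line of equal steps in grey. Most points lie above the line, mitotic genes are positive on both axes in nearly every case, and many S-phase genes are above 0 in WT and below 0 in KO.

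Clock genes moved in both directions. With surgery in the morning, 30 h and 40 h fall at different hours of the day, so time since surgery and hour of day cannot be told apart. Of 19 core clock genes 3 rose and 3 fell, beside 8.07% and 4.14% of all genes tested. Nr1d1, the repressor Rev-erb alpha, stood at 42.97 and 55.97 CPM at 30 h and 3.71, 1.97 and 9.77 CPM at 40 h. Replicate 3 of 40 h was highest of its group and still below both 30 h libraries (−3.29 ± 0.86, adjusted p = 0.0103). Dbp, an output activator, stood at 33.5 and 38.7 CPM at 30 h and 1.53, 0.768 and 9.44 CPM at 40 h (−3.25 ± 0.97, adjusted p = 0.0260), and Bhlhe41, a repressor of the E-box, at 2.33 and 2.79 CPM at 30 h and 0.236, 0.165 and 0.393 CPM at 40 h (−3.27 ± 0.78, adjusted p = 0.00413). Arntl (Bmal1), Clock and Npas2, the activators of the loop, rose. Arntl stood at 1.77 and 1.70 CPM at 30 h and 16.3, 26.8 and 4.79 CPM at 40 h, with replicate 3 of 40 h nearest to 30 h (3.21 ± 1.01, adjusted p = 0.0340), and Clock at 37.6 and 32.5 CPM at 30 h and 61.4, 77.9 and 58.5 CPM at 40 h (0.91 ± 0.28, adjusted p = 0.0297). Npas2 had a log2 difference of 4.68 ± 1.55, adjusted p = 0.0441. Leaving out replicate 2 or 3 of 30 h, or replicate 1, 2 or 3 of 40 h, in that order, left 0, 0, 2, 0 and 4 genes called higher and 2, 0, 1, 1 and 3 lower. Over the 13 alternatives the log2 difference lay between −4.13 and −2.79 for Nr1d1 and between 0.78 and 1.03 for Clock. In KO liver 3 core clock genes rose and 3 fell, among the latter Nr1d1 (−4.68), Dbp (−3.97) and Bhlhe41 (−4.05), and for Nr1d1 the WT step minus the KO step was 1.40 ± 1.24, adjusted p = 0.791. The adjusted p of Nr1d1 without replicate 3 of 30 h was 0.0750, and those of Dbp and Bhlhe41 0.120 and 0.0501.

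Around the step, Nr1d1 stood at 30.03, 23.4 and 14.1 CPM at 24 h and 2.67 and 3.13 CPM at 48 h, and Arntl at 27.4, 25.2 and 23.3 CPM at 24 h and 27.7 and 21.3 CPM at 48 h. Dbp, at 0.824, 1.40 and 0.651 CPM at 24 h and 0.247 and 0.895 CPM at 48 h, was highest in the 30 h libraries among these WT times. Cry1, a late repressor of the loop, stood at 7.001 and 6.06 CPM at 30 h and 25.6, 48.98 and 13.5 CPM at 40 h and was not called (2.18 ± 0.75, adjusted p = 0.0528). Ciart, another repressor, stood at 15.9 and 7.51 CPM at 30 h and 3.004, 3.24 and 19.2 CPM at 40 h. Replicate 3 of 40 h was above both 30 h libraries while replicates 1 and 2 lay below them (−0.46 ± 0.87, adjusted p = 0.787). Over all genes tested, 8.07% were called higher at 40 h. Of 20 output genes, 4 rose, among them Pdk4, which spares glucose in fasting (3.48 ± 0.91, adjusted p = 0.00991), and Cdkn1a, and 1 and 0 were called higher without replicate 2 and without replicate 3 of 30 h.

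**Figure D5:**
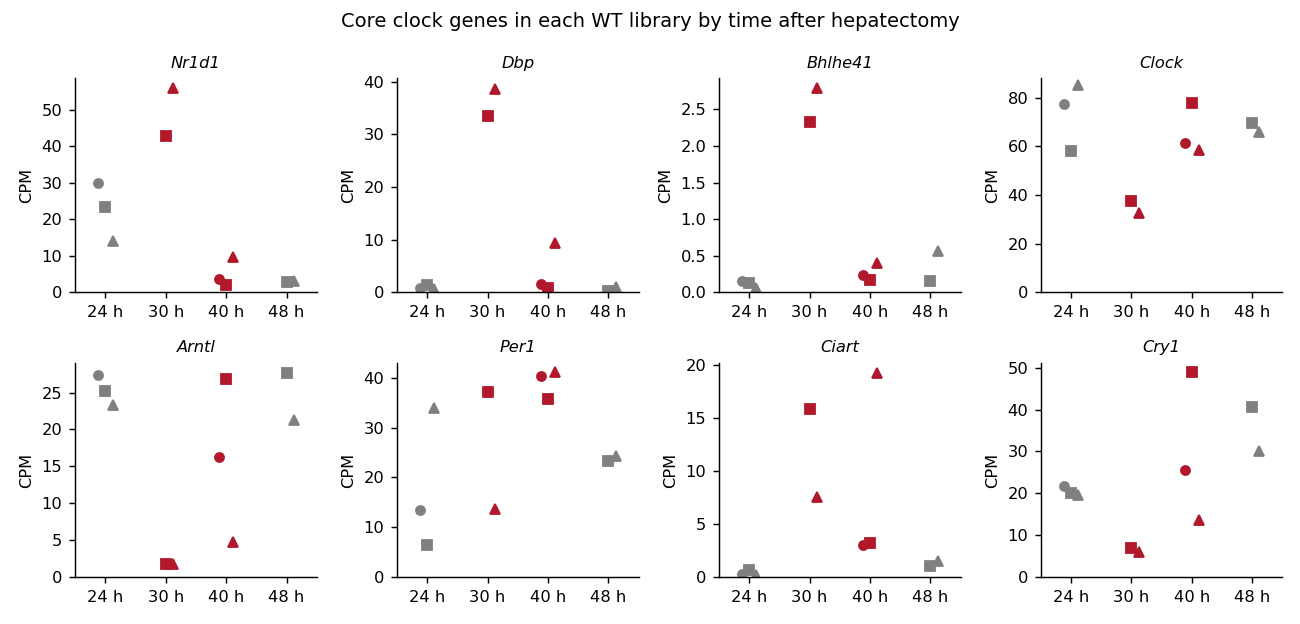
CPM (y axes, each from 0) of 8 core clock genes in each WT library at 24, 30, 40 and 48 h after hepatectomy (x axis), with the 30 h and 40 h libraries in red, the neighbouring times in grey, and circles, squares and triangles for replicates 1, 2 and 3. Nr1d1, Dbp and Bhlhe41 are high at 30 h and low at 40 h, Arntl is the reverse, and replicate 3 of 40 h lies toward 30 h for Nr1d1, Dbp, Arntl and Cry1.

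Part of the acute phase genes fell. On the list of IL-6 and STAT3 signalling and acute phase proteins, 7 of 27 fell, beside 4.14% of all genes, and none rose (median −0.84). For 20 genes all 40 h libraries lay below both 30 h libraries, beside 19.8% of all genes. Saa3, a serum amyloid A made by several cell types, stood at 62.8 and 204 CPM at 30 h and 22.5, 25.3 and 35.7 CPM at 40 h. Lbp, which binds lipopolysaccharide, stood at 200.04 and 447 CPM at 30 h and 96.6, 128 and 129 CPM at 40 h. In both, replicate 3 of 30 h was more than 2-fold above replicate 2, and the 40 h libraries were below either (−2.27 ± 0.69, adjusted p = 0.0281 for Saa3, and −1.46 ± 0.44, adjusted p = 0.0275 for Lbp). Hp, haptoglobin, Orm1, orosomucoid, the fibrinogen chains Fga and Fgb and the inhibitor Itih4 fell with log2 differences from −1.18 to −0.81. The Kupffer cell and neutrophil markers were highest in the same library, replicate 3 of 30 h, and their part in the result was not tested. The number called was 0, 0, 0 and 1 without replicate 3 of 30 h and without replicates 1, 2 and 3 of 40 h, with list medians of −0.65, −0.84, −0.80 and −0.89. In KO liver 4 of the 27 rose and 0 fell over the same hours (median 0.17), and for Saa3 and Lbp the WT step minus the KO step was −2.41 ± 0.92, adjusted p = 0.279, and −1.06 ± 0.60, adjusted p = 0.580. Saa genes share sequence, so the split of reads among them is uncertain.

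A2m, a protease inhibitor of plasma, stood at 14.2 and 29.1 CPM at 30 h and 5.48, 0.439 and 0.787 CPM at 40 h and fell (−3.27 ± 0.91, adjusted p = 0.0162), with adjusted p of 0.172, 0.0732 and 0.0788 without replicate 3 of 30 h and replicates 2 and 3 of 40 h. Neat1, the long noncoding RNA of paraspeckles, stood at 67.9 and 144 CPM at 30 h and 20.9, 21.8 and 12.5 CPM at 40 h (−2.53 ± 0.67, adjusted p = 0.0107), with 0.185 and 0.0555 without replicate 3 of 30 h or replicate 3 of 40 h. Of interferon-stimulated genes, 4 of 20 fell (median −0.62), beside 4.14% of all genes tested. Isg15, a ubiquitin-like modifier, stood at 13.2 and 8.54 CPM at 30 h and 3.53, 4.004 and 3.28 CPM at 40 h (−1.58 ± 0.34, adjusted p = 0.00122). Ifit1 (−1.96 ± 0.43, adjusted p = 0.00178), Irf7 (−1.12) and the chemokine Cxcl10 (−1.61) were the others. Leaving out replicate 2 or 3 of 30 h, or replicate 1, 2 or 3 of 40 h, left 0, 2, 2, 3 and 2 called lower. Replicate 2 of 30 h was the higher library for Isg15, and without it the adjusted p was 0.0536.

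Cholesterol synthesis was the metabolic list with the most calls. Of 24 genes, 9 fell, beside 4.14% of all genes tested, none rose and the median was −0.69. Mvd, which makes isopentenyl diphosphate, stood at 39.7 and 57.4 CPM at 30 h and 14.7, 9.82 and 5.70 CPM at 40 h (−2.26 ± 0.47, adjusted p = 0.00105). Sqle, squalene epoxidase, stood at 288 and 277 CPM at 30 h and 149.6, 121 and 119 CPM at 40 h. Both times were tight and apart (−1.12 ± 0.30, adjusted p = 0.0103). Fdps (−1.51), Mvk (−1.22), Msmo1 (−1.20), Fdft1 (−1.11), Lss (−1.06), Hsd17b7 (−0.66) and the transport protein Stard4 (−0.64) were the others. The regulator Srebf2 (−0.30) was not called. Leaving out replicate 2 or 3 of 30 h, or replicate 1, 2 or 3 of 40 h, left 3, 1, 7, 5 and 4 called lower, while DESeq2 called 13 with all libraries. The adjusted p of Sqle without replicate 2 and without replicate 3 of 30 h was 0.0620 and 0.0609.

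Of 20 genes of endoplasmic reticulum chaperones and the stress response, 5 fell and 1 rose (median −0.44), beside 4.14% and 8.07% of all genes tested. The chaperones Calr (−0.82 ± 0.18, adjusted p = 0.00184), Pdia4 (−0.77) and Pdia6 (−0.56) fell. The stress factor Xbp1 (−0.69) and asparagine synthetase, Asns (−1.46), fell too, and the serine synthesis enzyme Psat1 (1.53) rose. Leaving out replicate 2 or 3 of 30 h, or replicate 1, 2 or 3 of 40 h, left 2, 2, 3, 2 and 3 called lower and 1, 0, 0, 1 and 1 higher.

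For the hepatocyte programme, the background was the 4.14% of all genes called lower. Among 12 transcription factors of the hepatocyte 1 fell, Cebpa, which restrains hepatocyte division, at 158 and 209 CPM at 30 h and 68.7, 107 and 81.5 CPM at 40 h (−1.10 ± 0.21, adjusted p = 3.14e-04). Cyp2e1, a cytochrome P450 of the pericentral zone, stood at 7489.7 and 6054 CPM at 30 h and 3160.5, 4219 and 3200.4 CPM at 40 h (−0.94 ± 0.26, adjusted p = 0.0116), with adjusted p of 0.134, 0.0541 and 0.0509 without replicate 2 of 30 h and replicates 1 and 3 of 40 h. It was the one gene called among 22 of cytochrome P450 and drug metabolism (median 0.13). Alb took 5.79% and 4.47% of all counts at 30 h and 8.10%, 8.04% and 8.02% at 40 h. The times did not overlap, but the difference was not called (0.54 ± 0.25, adjusted p = 0.162). EdgeR called none among 22 plasma proteins (median −0.22), 20 genes of fatty acid oxidation (−0.11), 20 of glucose and glycogen (0.02), 13 of lipid droplets (0.16), 20 of ribosome biogenesis (−0.18) and 14 of cytosolic heat shock (−0.031). At an unadjusted p under 0.05 these 6 lists held 6, 4, 2, 0, 5 and 1 genes, in the same order, and upper-quartile scaling called 3, 2, 1, 0, 3 and 0 lower. A single member was called on each of the lists for the urea cycle and amino acid catabolism (Gldc, 0.93), fatty acid synthesis (Dgat1, 0.60) and bile acids (Nr1h4, the receptor FXR, −0.55). Without replicate 3 of 30 h their adjusted p were 0.160, 0.151 and 0.147. Rnf43, a target and brake of Wnt signalling on the pericentral list, had a log2 difference of −1.30 ± 0.42, adjusted p = 0.0361, with adjusted p of 0.660, 0.109 and 0.137 without replicate 3 of 30 h and replicates 1 and 3 of 40 h.

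Signals known to start regeneration were read beside the 12.2% of all genes called in either direction. Among 21 growth factors and receptors only Vegfa was called, lower at 40 h (−0.66 ± 0.17, adjusted p = 0.00582; 0.158 without replicate 3 of 30 h), and among 18 immediate early genes only Klf6 (2.01 ± 0.41, adjusted p = 7.97e-04), at 6.36 and 5.75 CPM at 30 h and 29.7, 20.4 and 23.2 CPM at 40 h. The only call among 12 targets of YAP was Birc5, survivin, which is also a mitotic gene (3.96 ± 0.44, adjusted p = 7.18e-08).

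Of the 12 largest falls that the naming rule picked, Nr1d1, A2m, Dbp, Neat1, Saa3, Mvd and Ifit1 are described above. Fam89a stood at 5.71 and 8.96 CPM at 30 h and 1.47, 1.86 and 1.25 CPM at 40 h (−2.26 ± 0.40, adjusted p = 9.58e-05). Prox1os, by its name on the strand opposite the hepatocyte factor Prox1, so that reads of overlapping parts cannot be told apart without a known strand, stood at 3.94 and 5.15 CPM at 30 h and 1.12, 1.43 and 0.590 CPM at 40 h (−2.101 ± 0.36, adjusted p = 6.69e-05). Alpk1, a kinase that senses a bacterial sugar, had a log2 difference of −1.94 ± 0.45, adjusted p = 0.00288, and an adjusted p of 0.101 without replicate 3 of 30 h. Slc13a5, the citrate transporter, stood at 1.69 and 9.45 CPM at 30 h and 1.30, 1.48 and 1.57 CPM at 40 h, with replicate 3 of 30 h far above the other 4, without which the adjusted p was 0.905. The secreted Prok1 had a log2 difference of −1.98 ± 0.67, adjusted p = 0.0470 and was not called without any single one of the 5 libraries (adjusted p from 0.0551 to 0.166).

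Haemoglobin genes rose. The erythroid markers summed to 90.8 and 169 CPM at 30 h and 306, 259 and 325 CPM at 40 h, and Hbb-bt (1.86), Hbb-bs (1.64), Hba-a2 (1.59) and Hba-a1 (1.51) were called, 4 of 5 tested. Paralogs of each chain share reads, so the split between them is uncertain. Leaving out replicate 2 or 3 of 30 h, or replicate 1, 2 or 3 of 40 h, left 0, 4, 1, 4 and 1 called.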

How the data were processed

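Poly(A) RNA of mouse liver was sequenced as paired 100 bp reads, per the labels' protocols. The main values are whole-number counts per gene (19966 genes, 45 libraries) as the authors deposited them, not normalized, and the second table holds FPKM values deposited by the authors, used only as an alternative on the log2(FPKM + 0.1) and log2(FPKM + 1) scales. The submitters' processing notes name Trimmomatic, TopHat2 2.1.0, HTSeq, Cufflinks 2.2.1, FastQC 0.11.5 and DESeq2, with build mm10. Annotation, strand setting and parameters: not given in the sources used here.

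Groups and replicate numbers come from the sample titles. Counts were filtered with filterByExpr (14090 genes kept), scaled with TMM and fitted with edgeR 4.0.16 in R 4.3.3 (quasi-likelihood, robust, 16 group means over all 45 libraries, 29 residual degrees of freedom), so all groups share the estimate of spread. Contrasts were WT 40 h minus 30 h, the same in KO, and their difference, with Benjamini-Hochberg adjustment over all genes tested. SE is the log2 difference divided by the root of F. Alternatives used DESeq2 1.42.0, limma 3.58.1, upper-quartile factors, no filter on low counts, fewer libraries, a replicate block, and each library left out in turn. The calculation was tested on simulated data.

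Genes were named by a rule: the 12 largest rises and 12 largest falls that were called, did not overlap between the times and reached a mean log2 CPM of 1 over all libraries, the 4 smallest p of each list, and the 8 smallest p of the difference between the steps. Other genes are named from the lists and were picked after their values were seen. The members and the gene lists were chosen with earlier results of these data known, so a list's direction is not independent support. Of 693 listed symbols, 680 were in the count table. Promoter windows were matched by symbol to a RefSeq table of GRCm38.p6.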

Additional observations from a re-analysis of the deposited data

Results flagged for a closer look

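The step from 30 h to 40 h differed between WT and KO liver in the test of the difference itself, by edgeR over all genes: 78 genes had the more positive step in WT and 4 the more negative one. The 8 genes with the smallest p, given as log2 WT step minus KO step, were Rrm2 (2.58), Tyms (1.18), Dut (1.31), Naip2 (−4.23), Psmc3ip (2.21), Eri1 (1.07), Ska1 (3.71) and Rpa1 (1.06). Of these, Rrm2, Tyms and Dut serve the supply of deoxynucleotides and Rpa1 the fork. The calls of these 8 depended on replicate 3 of WT at 30 h. Leaving out either replicate there leaves 1 library. Without replicate 3 the differences were 2.25 for Rrm2, 1.07 for Tyms, −3.27 for Naip2 and 4.03 for Ska1. Without replicate 2 they were 2.93, 1.25, −4.77 and 3.49.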

How the results depend on the processing

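The 1721 genes called between 30 h and 40 h in WT became 1901 with DESeq2 (1204 higher), 1941 with upper-quartile factors (854 higher), 1423 without a filter on low counts, 2019 without the 6 libraries of 96 h, 1539 and 1713 with limma on log2(FPKM + 0.1) and log2(FPKM + 1), and 1169 with only the 5 libraries fitted. Leaving out 1 library gave 643 (replicate 3 of WT at 30 h, with 2562 at an unadjusted p under 0.05) to 1492. For the difference between the steps, 82 became 217 with DESeq2, 60 with upper-quartile factors, 73 without the filter, 120 without 96 h, 39 and 260 with limma on the FPKM scales and 27 with only the 11 libraries of 30 h and 40 h, and leaving out 1 library gave 0 to 208. The cause of these changes was not tested.

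The S-phase median of 0.99 lay between 0.80 and 1.23 with 1 library left out. The mitotic median of 3.16 lay between 3.02 and 3.398, and was 2.105 on the log2(FPKM + 1) scale, where the pseudocount compresses low genes. Of 102 named genes called in the WT step, 59 were called in every alternative that gave them a value (11 for Dut, Fanca, Gins2 and Mvd, 13 for the others) and 43 lost the call in at least 1, with none reversed. Alb, not called, went from 0.54 to −17.80 and −14.47 on the log2(FPKM + 0.1) and log2(FPKM + 1) scales, because it is listed at 0 FPKM in all 3 libraries of 40 h while its counts there were the highest of the step.

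With the replicate number as a block, 1661 genes were called in the WT step and 54 in the difference between the steps. The deviations of same-numbered libraries at 30 h and 40 h correlated at −0.047 for replicate 2 and −0.138 for replicate 3 across genes. With only 2 libraries at 30 h, their deviations mirror each other. These values therefore cannot decide whether the numbers pair the samples.

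With 2 libraries at 30 h and 12.85 to 17.09 M counts in each, genes below about 1 CPM at 30 h, such as Ska1, Depdc1a and Pif1, rest on few counts.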

Other observations

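Genes on none of the lists, picked after their values were seen, also changed in edgeR's test between 30 h and 40 h. Among those that rose were the tubulin genes Tuba1b (1.80 ± 0.25, adjusted p = 3.52e-06), Tubb5 (1.55 ± 0.23, adjusted p = 5.35e-06), Tubb6 (1.86 ± 0.28, adjusted p = 9.62e-06) and Tubb4b (1.10 ± 0.26, adjusted p = 0.00337), as did Stmn1, stathmin, which destabilises microtubules (3.77 ± 0.37, adjusted p = 8.12e-09). Tubulin genes are alike in sequence, so the split of reads among them is uncertain. Ezh2, the methyltransferase of Polycomb repressive complexes, had a log2 difference of 1.82 ± 0.21, adjusted p = 7.23e-08, Slbp, which binds the stem-loop of histone mRNA, one of 1.15 ± 0.25, adjusted p = 0.00181, and the mitochondrial folate enzyme Mthfd2 one of 1.92 ± 0.26, adjusted p = 1.18e-06. Rad21, of cohesin, rose by 1.37 ± 0.16, adjusted p = 1.32e-07, and Apaf1, of the apoptosome, by 1.58 ± 0.22, adjusted p = 2.35e-06.

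Among genes that fell were Aqp9, the glycerol channel of hepatocytes (−0.93 ± 0.17, adjusted p = 1.37e-04), Gjb2, a gap junction protein (−0.98 ± 0.203, adjusted p = 8.52e-04), Cldn2, a tight junction protein (−1.14 ± 0.22, adjusted p = 3.64e-04), Sod2, the mitochondrial superoxide dismutase (−0.68 ± 0.14, adjusted p = 5.82e-04), Esrp2, a splicing factor of the mature hepatocyte (−0.77 ± 0.14, adjusted p = 1.27e-04), and Bid, which links death receptors to mitochondria (−1.13 ± 0.204, adjusted p = 1.54e-04).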
